A study of Mus musculus with 10 samples.

Results

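The NF-κB genes described here are 10 listed mouse genes, matched by symbol to the Ensembl identifiers of the files. The list was chosen with earlier results of these data known. The 5 subunits are Nfkb1, Nfkb2, Rela, Relb and Rel. The 5 inhibitors and feedback genes are Nfkbia, Nfkbie, Nfkbiz, Nfkbid and Tnfaip3. All 10 were found among 53379 gene identifiers and passed the filter on low counts, which kept 14528 genes. Each had 1082 to 19860 counts in each library.

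RNA sequencing was done on dendritic cells sorted from the spleens of single C57BL/6 mice aged 16 weeks. The libraries fell into CD11b KO (n = 2), CD11b WT (n = 3), CD8 KO (n = 2) and CD8 WT (n = 3). KO mice were Atg16l1 -/- and WT mice Atg16l1 +/+, where Atg16l1 encodes a protein that directs LC3 onto membranes in autophagy. The series title places the mice in a model of atherogenesis. Neither the promoter or Cre behind the deletion nor a diet or further allele is given in the labels. Cells were enriched on CD11c beads after enzymatic digestion and sorted as high for MHC class II and CD11c, with either CD11b and no CD8, or CD8 and no CD11b.

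NF-κB is a family of dimeric transcription factors that share a Rel homology domain. In resting cells IκB proteins hold dimers in the cytoplasm, and kinases activated by Toll-like, interleukin-1 and TNF family receptors mark IκB for destruction. The dimers then switch on inflammatory genes together with the genes of their own inhibitors. In dendritic cells the pathway is known for its part in maturation, and RelB is known for its part in the development of some splenic subsets.

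Because several of these genes are known to be NF-κB targets themselves, the 250 bases before the RefSeq start (build GRCm38.p6) were searched on both strands for the κB consensus. The RefSeq table held this window for 7 of the 10 genes, all but Nfkb1, Relb and Nfkbiz. Of the 7 windows, 5 held the consensus, against 3.74% of 27025 windows of the same length. A looser form that contains the consensus, GGG and CC with any 5 bases between them, was found in 7 of 7 and in 45.4% of all windows. Below are 120 bases, 5′ to 3′, of the promoters of a subunit and of the classical inhibitors IκBα and IκBε, with the consensus matches in capitals. They lie at chr11:23770970-23771089 (minus strand) for Rel, chr12:55492648-55492767 (minus strand) for Nfkbia and chr17:45555580-45555699 (plus strand) for Nfkbie.
Rel: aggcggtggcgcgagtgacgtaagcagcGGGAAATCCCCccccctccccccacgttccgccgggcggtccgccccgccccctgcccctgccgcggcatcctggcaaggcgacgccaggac
Nfkbia: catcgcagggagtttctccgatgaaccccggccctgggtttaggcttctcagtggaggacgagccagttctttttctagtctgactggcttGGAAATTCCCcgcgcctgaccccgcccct
Nfkbie: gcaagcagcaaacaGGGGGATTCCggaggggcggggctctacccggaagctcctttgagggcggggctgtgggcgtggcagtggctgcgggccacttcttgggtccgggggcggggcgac
The capitals in Rel are overlapping matches, 92 to 83 and 91 to 82 bases before the start. The match in Nfkbia lies 29 to 20 bases and that in Nfkbie 106 to 97 bases before the start. Nfkb2 held GGGAATTCCC (39 to 30 bases before its start), the overlapping GGAATTCCCC and GGGGCTTTCC (11 to 2 bases before it), and Tnfaip3 held GGGACACCCC (125 to 116 bases) and GGAAATCCCC (12 to 3 bases). In the GENCODE annotation the whole Nfkb2 window, 110 bases of the Tnfaip3 window, 58 bases of the Rela window and 1 base of the Rel window lie in annotated exon. The windows of Rela and Nfkbid held no consensus match. A match is a run of letters and was not measured as a binding site.

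The libraries held 9467704 to 13768884 gene counts. Atg16l1 had 1.73 to 3.31 CPM (the counts of a gene relative to the scaled library size) in the 4 KO libraries, against 13.3 to 32.7 CPM in the 6 WT libraries. The subset labels ran opposite to the defining transcripts in 10 of 10 libraries. Cd8a had 448 to 578 CPM at the label CD11b and 0.905 to 5.87 CPM at the label CD8, while Itgam, which encodes CD11b, had 1.58 to 2.73 CPM and 76.1 to 104 CPM. The summed level of 11 markers of type 1 conventional dendritic cells was 9963 to 10857 CPM in libraries labelled CD11b and 2692 to 3074 CPM in those labelled CD8. That of 12 markers of type 2 conventional dendritic cells was 267 to 327 CPM at the label CD11b and 2174 to 2484 CPM at the label CD8. In KO and in WT, 11 of 11 type 1 markers were called higher at the label CD11b (edgeR adjusted p under 0.05). Of the type 2 markers 11 of 12 were called lower there and 1 higher. By transcripts, libraries labelled CD11b thus resembled type 1 cells and those labelled CD8 type 2 cells. The labels are kept as given, so each direction is between labels and does not name the subset sorted.

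All 10 NF-κB genes were lower at the label CD11b than at the label CD8, in KO and in WT mice. The differences were 1.27-fold (Nfkbia) to 3.83-fold (Nfkbiz) in KO and 1.39-fold (Nfkb2) to 3.70-fold (Nfkbiz) in WT. With edgeR and Benjamini-Hochberg adjustment, 10 of 10 were called lower (adjusted p under 0.05) in KO, where 12.5% of all genes tested were called lower. In WT 10 of 10 were called lower, against 15.7% of all genes. The median log2 fold change of the 10 genes was −0.90 in KO and −1.14 in WT, while the median over all genes was −0.0079 in KO and 0.0032 in WT. The groups did not overlap for 10 of 10 genes in either genotype, against 30.6% of genes that were lower without overlap in KO and 21.7% in WT. The summed CPM of the 10 genes was 2816 to 2825 in CD11b KO, against 5411 to 5792 in CD8 KO. It was 2710 to 2916 in CD11b WT, against 6076 to 6260 in CD8 WT. In sorted populations, fewer cells of a type and less RNA per cell cannot be told apart.

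**Figure D1:**
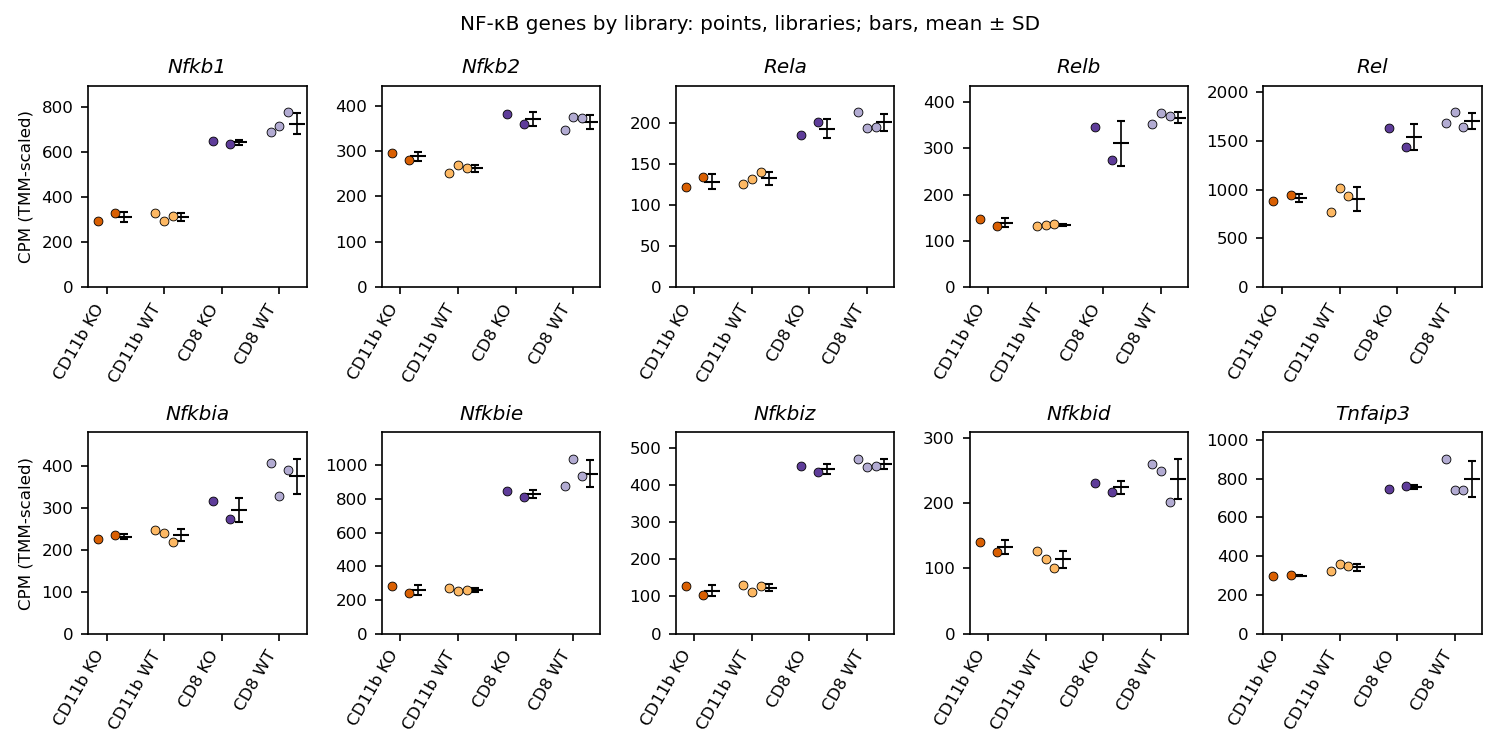
CPM of each NF-κB gene (y axes, from 0, 1 panel per gene) in the 4 groups of label and genotype (x axes). Points are libraries and bars are the mean ± SD (n = 2 in KO, n = 3 in WT). In all 10 panels every library labelled CD11b lies under every library labelled CD8; for Nfkbiz they reach at most 129.8 CPM at the label CD11b and at least 433 CPM at the label CD8.

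The subunits differed between the labels to different extents. Nfkb1 encodes p105, the precursor of the DNA-binding subunit p50. It had 294 and 328 CPM in CD11b KO against 651 and 634 CPM in CD8 KO, and 328, 291 and 314 CPM in CD11b WT against 687, 714 and 777 CPM in CD8 WT. Every library labelled CD11b was well below every library labelled CD8, with log2 fold changes of −1.05 ± 0.10 in KO (SE; edgeR adjusted p = 3.72e-08) and −1.22 ± 0.08 in WT (5.36e-11). Relb, the subunit of the alternative pathway that pairs with p52, had 146 and 133 CPM in CD11b KO against 345 and 275 CPM in CD8 KO. In WT mice it had 132, 134 and 135 CPM at the label CD11b against 353, 376 and 369.6 CPM at the label CD8. CD8 KO 2 was the lowest of the libraries labelled CD8 and still stood above all libraries labelled CD11b. The log2 fold change was −1.15 ± 0.12 in KO (SE; edgeR adjusted p = 7.08e-08) and −1.45 ± 0.10 in WT (3.07e-11).

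Rel, which encodes c-Rel, the subunit known for driving Il12b in dendritic cells, had 883 and 940.1 CPM in CD11b KO against 1636 and 1441 CPM in CD8 KO. It had 773, 1012 and 937 CPM in CD11b WT against 1678, 1793 and 1642 CPM in CD8 WT. CD11b WT 1 was the lowest library. The log2 fold change was −0.75 ± 0.11 in KO (SE; edgeR adjusted p = 8.87e-06) and −0.91 ± 0.09 in WT (1.64e-08). Rela encodes p65, the subunit with the main activation domain of the classical pathway. Its levels were 123 and 135 CPM in CD11b KO against 186 and 202 CPM in CD8 KO, and 126, 132 and 141 CPM in CD11b WT against 214, 194 and 196 CPM in CD8 WT. No library of one label reached the other, and the difference was −0.59 ± 0.12 in KO (SE; edgeR adjusted p = 0.0006) and −0.60 ± 0.10 in WT (3.05e-05) on the log2 scale.

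Nfkb2, which encodes p100, the precursor of p52 and itself an inhibitor of RelB, differed least among the subunits. It had 296 and 282 CPM in CD11b KO against 382 and 361 CPM in CD8 KO, and 252, 269.6 and 264 CPM in CD11b WT against 347, 375 and 373 CPM in CD8 WT. The groups lay close together but did not overlap. The log2 fold change was −0.36 ± 0.10 in KO (SE; edgeR adjusted p = 0.011) and −0.48 ± 0.08 in WT (8.4e-05). The KO call was lost without CD11b KO 2 (edgeR adjusted p = 0.0846) and without CD8 KO 1 (0.0958).

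Among the inhibitors, Nfkbiz and Nfkbie had the largest differences of the 10 genes. Nfkbiz encodes IκBζ, a nuclear IκB protein that acts on chromatin at secondary response genes. It had 127 and 105 CPM in CD11b KO against 452 and 433 CPM in CD8 KO, and 129.8, 112 and 127 CPM in CD11b WT against 470.0, 447 and 449.8 CPM in CD8 WT. The libraries of each label lay close together and the labels far apart, with log2 fold changes of −1.94 ± 0.12 in KO (SE; edgeR adjusted p = 1.32e-11) and −1.89 ± 0.10 in WT (2.68e-13). Nfkbie encodes IκBε, a cytoplasmic inhibitor known for holding c-Rel and p65. It had 279.9 and 239.8 CPM in CD11b KO against 846 and 810.4 CPM in CD8 KO, and 272, 251 and 258 CPM in CD11b WT against 879, 1038 and 934 CPM in CD8 WT. No library labelled CD11b came near a library labelled CD8. Its log2 fold change was −1.67 ± 0.11 in KO (SE; edgeR adjusted p = 3.1e-11) and −1.87 ± 0.09 in WT (7.3e-14).

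Nfkbia, which encodes IκBα, the fast negative feedback inhibitor, had the smallest difference in KO. It had 227 and 236 CPM in CD11b KO against 316 and 275 CPM in CD8 KO, and 248, 241 and 219 CPM in CD11b WT against 408, 329 and 392 CPM in CD8 WT. CD8 KO 2 was the library labelled CD8 nearest to those labelled CD11b. The log2 fold change was −0.35 ± 0.12 in KO (SE; edgeR adjusted p = 0.0366) and −0.67 ± 0.10 in WT (6.94e-06). The KO call was lost without CD11b KO 1 (edgeR adjusted p = 0.161), without CD11b KO 2 (0.0932) and without CD8 KO 1 (0.307). Nfkbid encodes IκBNS, a nuclear IκB protein. It had 140.5 and 125 CPM in CD11b KO against 232 and 217 CPM in CD8 KO, and 126, 114 and 101 CPM in CD11b WT against 260.1, 249.5 and 202 CPM in CD8 WT. The groups did not overlap, and the log2 fold change was −0.75 ± 0.14 in KO (SE; edgeR adjusted p = 0.00017) and −1.06 ± 0.11 in WT (6.77e-08). Tnfaip3 encodes A20, a ubiquitin-editing enzyme that shuts off signalling upstream of the IκB kinases. It had 299 and 300.5 CPM in CD11b KO against 748 and 762 CPM in CD8 KO, and 323, 358 and 347 CPM in CD11b WT against 903, 744 and 741 CPM in CD8 WT. All libraries labelled CD11b lay below all libraries labelled CD8, with log2 fold changes of −1.33 ± 0.11 in KO (SE; edgeR adjusted p = 1.34e-09) and −1.22 ± 0.09 in WT (1.05e-10).

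**Figure D2:**
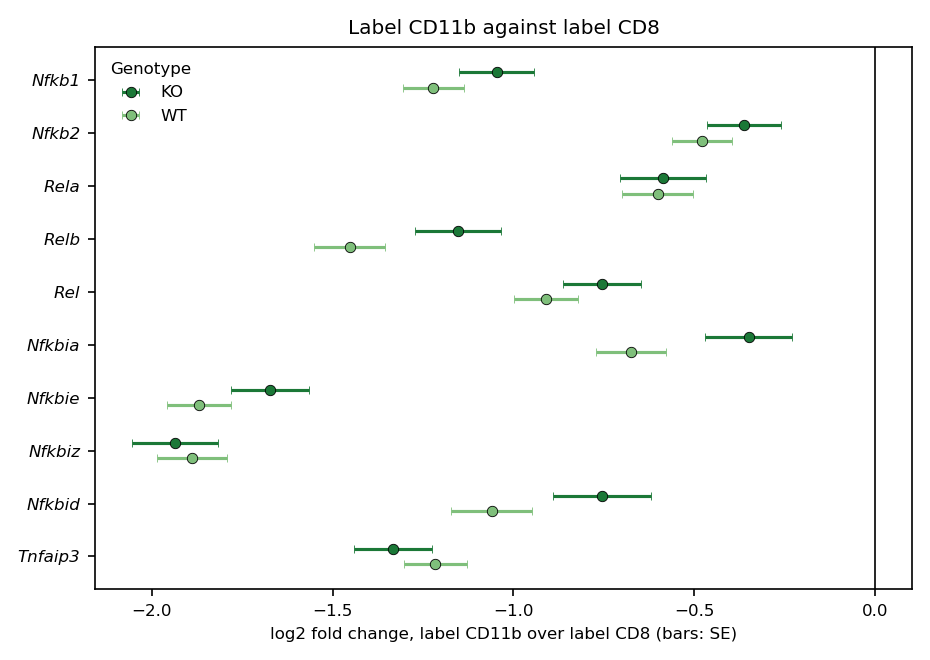
Log2 fold change (x axis) of label CD11b over label CD8 for each NF-κB gene (y axis), in KO and in WT. Points are edgeR estimates and bars their SE. All 20 estimates lie left of 0, the smallest at −0.35 for Nfkbia in KO and the largest at −1.94 for Nfkbiz in KO.

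Transcripts of other cells and of cell handling also differed between the labels. The summed level of 15 B cell markers was 288 to 632 CPM at the label CD11b in KO and 292 to 379 CPM in WT, compared with 1060 to 2896 CPM in CD8 KO and 586 to 1196 CPM in CD8 WT. Of these markers 14 were called lower at the label CD11b in KO and 10 in WT, and none was at 0 in all libraries of a group. Without CD8 KO 2, the library with the most B cell transcripts, the log2 fold changes in KO ran between −0.39 for Nfkb2 and −1.96 for Nfkbiz. This omission cannot separate the part of B cell transcripts, since CD8 KO 1, at 1060 CPM, also lay above both CD11b KO libraries. Red pulp macrophage markers (14 genes) summed to 191 to 223 CPM in CD11b KO, compared with 520.1 to 545 CPM in CD8 KO. In WT they summed to 162 to 199 CPM at the label CD11b and 325 to 429 CPM at the label CD8. At the label CD11b 9 of 14 were called lower and 0 higher in KO, and 9 lower and 1 higher in WT. Their log2 fold change was above 0 for 2 of 14 in KO and 4 of 14 in WT. A list of 24 immediate early genes, which respond to tissue dissociation and include Nfkbia and Nfkbiz, summed to 11922 to 12177 CPM in CD11b KO and 12952 to 14608 CPM in CD11b WT, compared with 15305 to 17824 CPM in CD8 KO and 18396 to 23570 CPM in CD8 WT. Of these 24 genes 13 were called lower and 3 higher at the label CD11b in KO, and 14 lower and 3 higher in WT. Monocyte markers (11 measured) had 6 called lower and 1 higher at the label CD11b in KO, and 7 lower and 1 higher in WT. In the mature dendritic cell markers (14 measured, Relb and Nfkb2 among them) 6 were called lower and 2 higher in KO. In WT 6 of them were called lower and 3 higher, and their median log2 fold change was −0.34 in KO and −0.04 in WT. Of all genes, 12.5% were called lower and 10.3% higher in KO, and 15.7% and 13.8% in WT. The part of these transcripts in the difference of the NF-κB genes was not tested.

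Levels were compared between genes per kb of annotated exon. At the label CD8 Nfkbie was the most abundant, at 272 ± 8.31 CPM per kb in KO (SD, n = 2) and 312 ± 26.6 CPM per kb in WT (SD, n = 3). Rel and Nfkbia came next, with 206 and 184 CPM per kb in CD8 KO and 228 and 234 CPM per kb in CD8 WT, and their libraries overlapped in both groups. At the label CD11b Nfkbia led with 144 CPM per kb in KO and 147 CPM per kb in WT. Rel followed with 122 CPM per kb in each genotype and Nfkbie with 85.3 CPM per kb in KO and 85.5 CPM per kb in WT, and the libraries of these 3 genes did not overlap. Nfkbie thus led at the label CD8 and stood behind Nfkbia and Rel at the label CD11b. Nfkb1 and Nfkbiz were the lowest at the label CD11b, at 25.8 and 23.1 CPM per kb in KO and 25.8 and 24.5 CPM per kb in WT, and overlapped there. At the label CD8 Nfkbiz reached 88.2 CPM per kb in KO and 90.8 CPM per kb in WT, above Nfkb2, Rela and Nfkb1. The place of Nfkb1 depends on the length used: 12061 bp of exon are annotated, against 4117 bp in its longest coding transcript, by which it took rank 5 of 10 in CD11b WT and in CD8 WT.

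**Figure D3:**
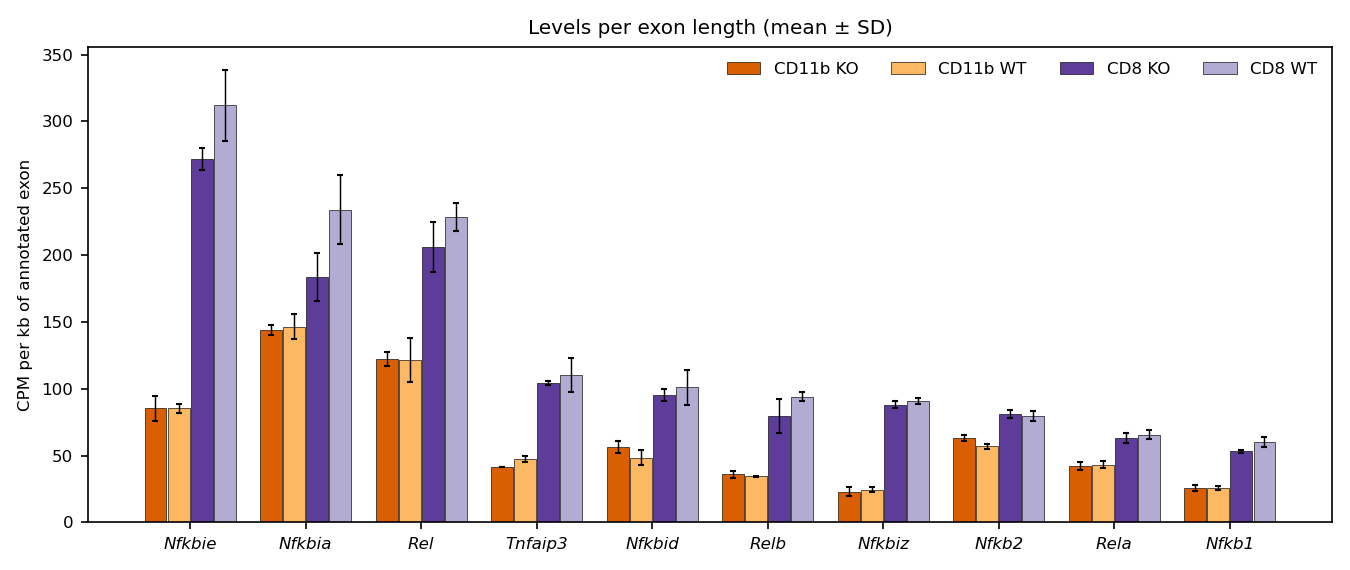
Mean level per kb of annotated exon (y axis, CPM per kb, from 0) of the NF-κB genes (x axis, ordered by the CD8 WT mean) in the 4 groups. Bars are means and whiskers the SD (n = 2 in KO, n = 3 in WT). Nfkbie is the tallest at the label CD8, at 312 CPM per kb in WT, and lies under Nfkbia and Rel at the label CD11b.

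Around the 10 genes, the other genes of the pathway were counted by role, against 10.3% of all genes called higher and 12.5% called lower at the label CD11b in KO, and 13.8% higher and 15.7% lower in WT. Inhibitors and feedback genes outside the 10 (18 measured) had 8 called lower and 1 higher at the label CD11b in KO, and 9 lower and 4 higher in WT, with a median log2 fold change of −0.37 in KO and −0.30 in WT. Bcl3, a nuclear IκB protein that works with p50 and p52, had 19.7 ± 1.99 CPM in CD11b KO against 76.3 ± 0.93 CPM in CD8 KO (SD, n = 2 each), a log2 fold change of −1.95 ± 0.19 (SE; adjusted p = 2.68e-08 by edgeR). In WT its log2 fold change was −1.80 ± 0.15 (SE; edgeR adjusted p = 1.65e-09). Zc3h12a, an RNase that degrades inflammatory transcripts, fell by 1.39 in KO and by 1.33 in WT on the log2 scale. Tnip1, a partner of A20, fell by 0.83 in KO and by 0.80 in WT.

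Of 8 ligands measured among 12 listed, 4 were called lower at the label CD11b and 0 higher in each genotype, with medians of −1.12 in KO and −0.97 in WT. Il1b, the interleukin that signals through MyD88, had 546 ± 20.2 CPM in CD11b KO against 1296 ± 257 CPM in CD8 KO (SD, n = 2 each), and 666 ± 64.1 CPM in CD11b WT against 1542 ± 146 CPM in CD8 WT (SD, n = 3 each). Ltb, a subunit of the lymphotoxin that drives the alternative pathway and a gene that B cells also express, fell by 2.65 in KO and by 3.43 in WT on the log2 scale. Tnf fell by 0.80 in KO (edgeR adjusted p = 0.018) and by 0.99 in WT (0.000375). Receptors (11 measured of 12) had 3 called lower and 1 higher in each genotype, with medians of −0.33 in KO and 0.0056 in WT. In WT 6 of the 11 receptors had a log2 fold change above 0 and 5 below. Tnfrsf1b, the second TNF receptor, had log2 fold changes of −1.34 in KO and −1.17 in WT, and Tnfrsf13b, a receptor of BAFF and APRIL that B cells also express, −2.80 in KO and −2.15 in WT. Il1rap, the shared chain of the interleukin-1 receptor, was higher at the label CD11b by 1.42 in KO and 1.13 in WT.

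Adaptors and ubiquitin ligases (24 measured) had 8 called lower and 1 higher in KO, and 12 lower and 2 higher in WT. Malt1, a protease and scaffold that links antigen and lectin receptors to the IκB kinases, had log2 fold changes of −1.34 in KO and −1.21 in WT. Traf1, an adaptor of TNF receptors, had −1.06 in KO and −1.04 in WT. Of 11 kinases measured, 1 was called lower and 1 higher in KO, and 2 lower and 0 higher in WT, shares near those of all genes for the lower calls. Ikbkb, which encodes IKKβ, the kinase of the classical pathway, fell by 0.72 on the log2 scale in each genotype. Chuk, which encodes IKKα, was higher at the label CD11b in KO (0.61; edgeR adjusted p = 0.0172).

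Known target genes went both ways. Of 36 measured, 14 were called lower and 5 higher at the label CD11b in KO, and 13 lower and 11 higher in WT, with medians of −0.30 in KO and −0.02 in WT. Ptgs2, which encodes cyclooxygenase-2, had 25.6 ± 0.28 CPM in CD11b KO against 597 ± 132 CPM in CD8 KO (SD, n = 2 each), a log2 fold change of −4.54 ± 0.19 (SE; adjusted p = 2.48e-14 by edgeR). In WT its log2 fold change was −4.76 ± 0.15 (SE; edgeR adjusted p = 1.43e-16). Il12b, which encodes the p40 chain of interleukin-12, was higher at the label CD11b, with log2 fold changes of 1.94 ± 0.19 in KO (SE; edgeR adjusted p = 3.92e-08) and 2.80 ± 0.16 in WT (3.06e-12). It is known to depend on c-Rel in macrophages and dendritic cells, while Rel itself was lower at this label. The target list was taken from general knowledge of the pathway and shares Bcl3, Tnip1, Nfkbib, Traf1, Birc3, Tnf and Il1b with the lists above.

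**Figure D4:**
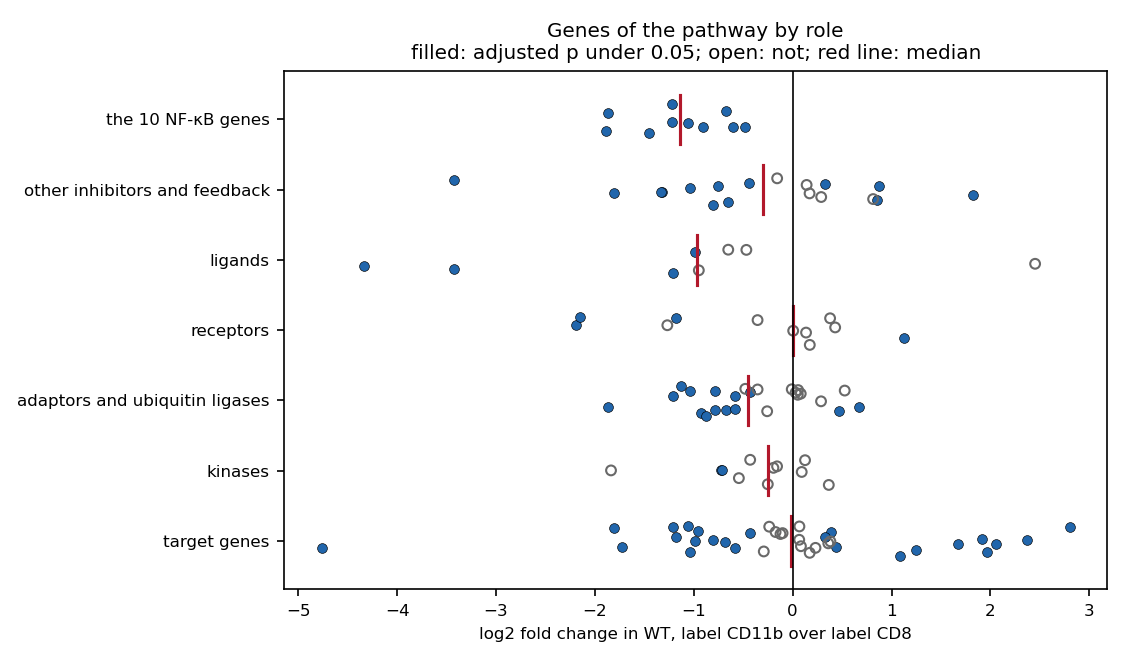
Log2 fold change in WT of label CD11b over label CD8 (x axis) for each gene of the pathway, in rows by role (y axis). Filled points passed an edgeR adjusted p under 0.05, open points did not, and the red line is the median of the row. The 10 NF-κB genes all lie left of 0 (median −1.14), while the 36 target genes spread on both sides (median −0.02).

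Loss of Atg16l1 was compared with WT within each label. At the label CD11b none of the 10 genes passed: 0 of 10 were called by edgeR, where 0.145% of all genes were called (21 genes), and 0 of 10 had an unadjusted p under 0.05, where 6.42% of all genes had one. DESeq2 and limma-voom also called 0 of 10. The log2 fold changes of KO over WT ran between −0.19 for Tnfaip3 and 0.22 for Nfkbid, and their 95% intervals together spanned −0.40 to 0.48. Tnfaip3 averaged 299.8 ± 0.891 CPM in CD11b KO (SD, n = 2) and 343 ± 17.8 CPM in CD11b WT (SD, n = 3), and the KO libraries lay below all WT libraries (edgeR adjusted p = 0.787). Nfkb2, at 289 ± 10.1 CPM in CD11b KO and 262 ± 8.71 CPM in CD11b WT, lay above all WT libraries (edgeR adjusted p = 0.864). These were 1 of 10 genes lower and 1 of 10 higher without overlap, near the 10.1% and 10.3% of all genes. Nfkbid averaged 133 ± 10.7 CPM in CD11b KO and 114 ± 12.9 CPM in CD11b WT, with overlap. The call count over all genes was 13 when both CD11b WT 1, the library with the most genes detected, and CD8 KO 2 were left out, and 0 of the 10 genes were called then.

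At the label CD8, 9 of 10 NF-κB genes had a lower estimate in KO than in WT, but edgeR, DESeq2 and limma-voom each called 0 of 10, where edgeR called 0.145% of all genes (21 genes). The log2 fold changes ran between −0.35 for Nfkbia and 0.03 for Nfkb2, with 95% intervals that together spanned −0.58 to 0.22. Their median was −0.11, against 0.00032 over all genes, whose median size in either direction was 0.23. Nfkbia had 316 and 275 CPM in CD8 KO against 408, 329 and 392 CPM in CD8 WT. Both KO libraries lay below all WT libraries, CD8 WT 2 being close to CD8 KO 1. Its log2 fold change was −0.35 ± 0.11 (SE; edgeR unadjusted p = 0.00414, adjusted p = 0.383), and over the alternatives the smallest adjusted p was 0.107, with limma-voom. Relb was the other of 2 genes with an unadjusted p under 0.05, which 6.52% of all genes had, at −0.24 ± 0.11 (SE; edgeR unadjusted p = 0.0371, adjusted p = 0.712). Its KO mean rested on CD8 KO 2, and without that library its log2 fold change was −0.08 and that of Nfkbia −0.25 (edgeR unadjusted p = 0.55 and 0.0888).

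In 5 of 10 genes both CD8 KO libraries lay below all 3 CD8 WT libraries, against 11.9% of all genes. They were Nfkb1, Relb, Rel, Nfkbia and Nfkbie. For Rel the gap was small, at 1636 CPM in CD8 KO 1 against 1642 CPM in CD8 WT 3. Nfkb1 averaged 643 ± 11.9 CPM in CD8 KO (SD, n = 2) and 726 ± 46.0 CPM in CD8 WT (SD, n = 3), with a log2 fold change of −0.18 ± 0.09 (SE; adjusted p = 0.804 by edgeR). Nfkbie averaged 828 ± 25.3 CPM in CD8 KO and 950.5 ± 81.0 CPM in CD8 WT, with −0.20 ± 0.10 (SE; edgeR adjusted p = 0.76). Rela, Nfkbiz, Nfkbid and Tnfaip3 had −0.04 to −0.08 and overlapped.

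Marker lists of other cells, immediate early genes and dendritic cell markers were also compared by genotype, mostly at the label CD8. B cell markers summed to 1060 CPM in CD8 KO 1 and 2896 CPM in CD8 KO 2, against 586 to 1196 CPM in CD8 WT, and the log2 fold change was above 0 for 15 of 15, of which edgeR and DESeq2 called 0 and limma-voom 2 (12 at an unadjusted edgeR p under 0.05, against 6.52% of all genes). Immediate early genes had a negative one in 23 of 24 at this label and in 24 of 24 at the label CD11b, with medians of −0.29 and −0.22, and edgeR called 0 at either label (13 and 7 at an unadjusted p under 0.05, against 6.52% and 6.42% of all genes). DESeq2 called 1 and limma-voom 3 of them lower at the label CD8, and both called 0 at the label CD11b. Mature dendritic cell markers, a list that includes Relb and Nfkb2, summed to 3516 to 3979 CPM in CD8 KO against 3660 to 4178 CPM in CD8 WT, with overlap. Their log2 fold change was above 0 for 11 of 14, with a median of 0.24, and edgeR, DESeq2 and limma-voom each called 0 (6 at an unadjusted edgeR p under 0.05). Red pulp macrophage markers summed to 520.1 to 545 CPM in CD8 KO against 325 to 429 CPM in CD8 WT, without overlap. Their log2 fold change was above 0 for 12 of 14, with a median of 0.52, and edgeR called 0, DESeq2 1 and limma-voom 3 (5 at an unadjusted edgeR p under 0.05). Of 12 cDC2 markers and 10 plasmacytoid dendritic cell markers, edgeR called 1 each higher in CD8 KO, where it called 0.145% of all genes. DESeq2 and limma-voom called Irf4, a cDC2 marker, and Cox6a2, a plasmacytoid dendritic cell marker, higher in CD8 KO. Both also called Itgax, which encodes CD11c, higher, and limma-voom called H2-Ab1 lower. At the label CD11b edgeR and DESeq2 each called 2 of 12 cDC2 markers lower in KO, and limma-voom called 0. Their log2 fold change there was below 0 for 10 of 12, with a median of −0.32 (6 at an unadjusted edgeR p under 0.05). They summed to 267 to 278 CPM in CD11b KO against 323 to 327 CPM in CD11b WT, without overlap. The part of these transcripts in the estimates for the NF-κB genes was not tested. Over all genes edgeR called 7 without CD8 KO 2, 53 without CD8 KO 1 and 32 without CD11b WT 1, and 0 of the 10 genes in each case.

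**Figure D5:**
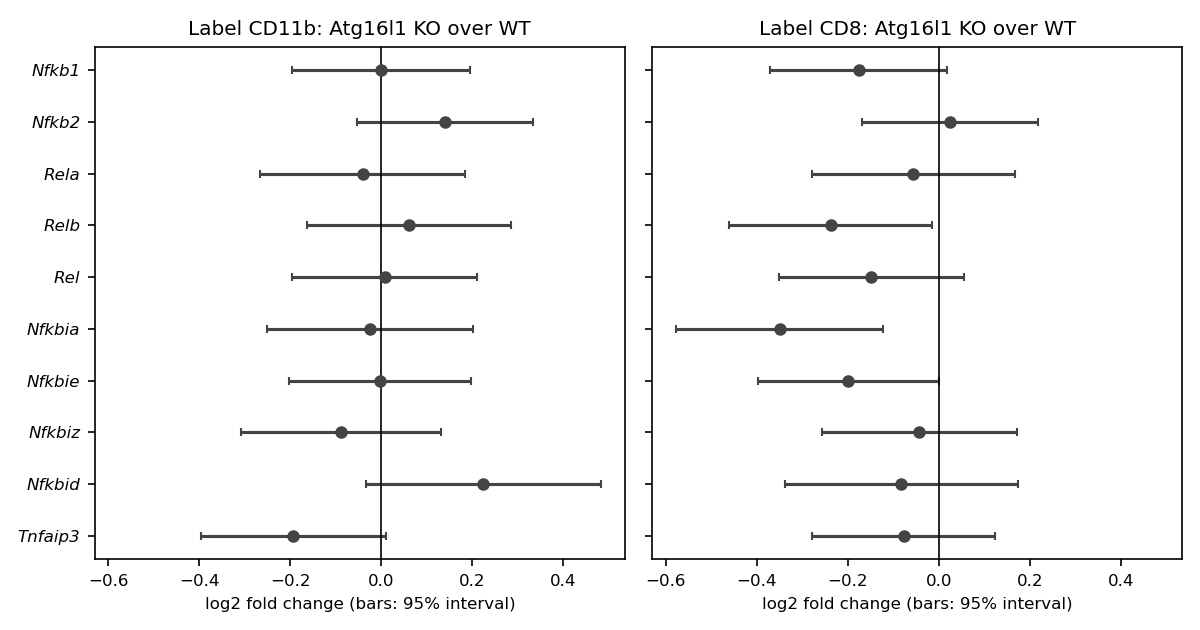
Log2 fold change of Atg16l1 KO over WT (x axes) of the NF-κB genes (y axis) at the label CD11b (left) and the label CD8 (right). Points are edgeR estimates and bars their 95% intervals. The intervals of Relb and Nfkbia at the label CD8 lie below 0 before adjustment, and none of the 20 estimates passed after adjustment over all genes.

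Whether the genotype effect differed between the labels was tested directly. For the difference of effects (label CD11b minus label CD8), edgeR, DESeq2 and limma-voom each called 0 of the 10 genes, where edgeR called 0.0206% of all genes (3 genes; 28 with a block on genotype and replicate number), and 1 had an unadjusted p under 0.05, against 5.46% of all genes. That gene was Nfkbia, with a difference of 0.33 ± 0.15 (SE; edgeR unadjusted p = 0.0459, adjusted p = 0.902). The estimates ran between −0.12 for Tnfaip3 and 0.33 for Nfkbia, and their 95% intervals together spanned −0.40 to 0.67. With 1 library left out, the count over all genes was 5 to 8 without CD11b WT 1, CD11b WT 3, CD8 WT 1, CD8 WT 3 or CD8 KO 1.

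Among the other pathway genes edgeR called 0 in KO against WT at either label in each of the 6 lists. At an unadjusted p under 0.05 there were 3 of 18 other inhibitors, 1 of 8 ligands, 0 of 11 receptors, 3 of 24 adaptors, 0 of 11 kinases and 6 of 36 target genes at the label CD11b, where 6.42% of all genes had one. At the label CD8 there were 11 of 36 target genes, 0 of 24 adaptors and 1 in each of the other lists, where 6.52% of all genes had one. At the label CD8 DESeq2 called Il6 higher, and limma-voom called Map3k14 and Ptgs2 lower. Both tools called 0 in the 6 lists at the label CD11b. Map3k14, which encodes NIK, the kinase that starts the alternative pathway, averaged 387 ± 61.7 CPM in CD8 KO (SD, n = 2) and 539 ± 52.1 CPM in CD8 WT (SD, n = 3), with a log2 fold change of −0.48 ± 0.13 (SE; adjusted p = 0.269 by edgeR). Il6 was low, at 5.26 ± 0.57 CPM in CD8 KO and 0.75 ± 0.24 CPM in CD8 WT (edgeR adjusted p = 0.115). Il12b averaged 44.7 ± 4.52 CPM in CD8 KO and 29.0 ± 8.52 CPM in CD8 WT (edgeR adjusted p = 0.289).

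The genes whose pattern over the 10 libraries was nearest to each NF-κB gene were found among 10930 genes by the root mean square difference of log2(CPM + 0.5), each gene centred on its own mean. These distances describe 10 shared libraries and carry no test. For the subunits the nearest were Stk24 (distance 0.058) to Nfkb1, Tnrc18 (0.048) to Nfkb2, Map3k1 (0.061) to Rela, Arhgef2 (0.089) to Relb and Ttyh3 (0.066) to Rel. For the inhibitors they were Elovl5 (0.10) to Nfkbia, Lta4h (0.086) to Nfkbie, Slc43a2 (0.10) to Nfkbiz, Kmt2c (0.11) to Nfkbid and Itpr3 (0.085) to Tnfaip3. No gene was among the 3 nearest of more than 1 of the 10. Nfkbie and Nfkbiz were the pair of NF-κB genes nearest to each other (0.11), Nfkbie being the fourth nearest gene to Nfkbiz and Nfkbiz the tenth nearest to Nfkbie.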

How the data were processed

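RNA was sequenced from 10 libraries of sorted mouse spleen dendritic cells, made with a stranded total RNA kit for small inputs, per the labels' protocols. STAR 2.5.0a and GRCm38 are named in the submitters' processing notes; the annotation release and the handling of duplicates are not given in the sources used here. The authors deposited raw counts per gene for each library, unstranded and per strand. The strand column used held 13.5 to 17.7 times the counts of the other. Of all reads, 59.2% to 67.8% were given to no gene on this strand. These include the reads mapped to several places (21.7% to 25.5% of reads), which were not counted to a gene. The 9467704 to 13768884 counts per library leave 1082 or more per NF-κB gene. Counting precision covers counting error only, since the labels name no molecular identifiers.

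Symbols came from GENCODE M21, with 53274 of 53379 identifiers found. Nfkb1 overlaps Gm43430 on its own strand (119 to 264 counts), where the counts of each are uncertain, and Nfkb2 overlaps Psd on the other strand. Genes were filtered by edgeR's filterByExpr (14528 kept), scaled by TMM, and fitted as 4 group means over all 10 libraries by edgeR 4.0.16 quasi-likelihood in R 4.3.3. Benjamini-Hochberg adjustment covered all genes tested, and an adjusted p under 0.05 was called. Standard errors and 95% intervals were derived from the F statistic of each fold change. The model was tested on simulated counts. Alternatives were RLE size factors, 2 other filters, unstranded counts, DESeq2 1.42.0, limma-voom (limma 3.58.1), only the libraries compared, a block on the replicate number, and each library left out. A block on genotype and number, and omitting CD11b WT 1 together with CD8 KO 2, were added after seeing the data. Promoters and figures used Python 3.11.15.

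The 10 genes and all lists were chosen with earlier results of these data known. Apart from the 10, up to 4 called genes per list, or up to 2 where none was called, were named by smallest p. Ptgs2 in KO against WT, and the genes with extreme or non-overlapping values, were named after their values were seen.

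Deviations from the group means (7548 genes of at least 10 CPM) of same-numbered libraries of 1 genotype correlated across labels at r = 0.1004 to 0.1494 in 5 pairs. Centring on the group means forces both KO pairs to 1 value, 0.1309, and pushes libraries of other numbers below 0, so the 5 values are not independent. The numbers were taken as pairs only because each value exceeded 0.1, and only in the block on genotype and number. The main fit held no pairing. The labels do not say whether a pair is 1 mouse. Same-numbered libraries of different genotype had −0.0811 to 0.1268 and were not taken as pairs.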

Additional observations from a re-analysis of the deposited data

How the results depend on the processing

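The count of NF-κB genes called was 0 in both genotype comparisons and for the difference of effects under each of 19 alternatives. It was 10 in WT between the labels under each of 20, and 8 to 10 in KO with 1 library left out and 10 otherwise. All 400 fold changes between labels were negative. With the block on the replicate number, 10 of 10 genes stayed called between the labels and 0 in the other comparisons. The block on genotype and number was fitted only for the label comparisons and the difference of effects. It left 10 of 10 genes called between the labels in each genotype and 0 for the difference. Neither block changed a call of the 10 genes where it was fitted.

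Signs turned for estimates near 0, none of them called. At the label CD11b, KO over WT of Nfkb1 turned to 0.00742 with RLE, 0.00368 with the 1 CPM filter, 0.00769 with DESeq2, 0.00148 with only the libraries compared, 0.027 with the replicate block and 0.046 with both libraries left out. Nfkbie turned to 0.00546, 0.00178, 0.00506 and 0.000345 under the first 4 of these and to 0.037 with both left out. Rel turned to −0.00110 without a filter, −0.00434 with unstranded counts and −0.089 with both left out, and Nfkbia to 0.019 with both left out. For the difference of effects Rel turned to −0.035 with both left out. With 1 library left out, the ranges at the label CD11b were −0.083 to 0.076 for Nfkb1, −0.112 to 0.026 for Rela, −0.010 to 0.129 for Relb, −0.096 to 0.093 for Rel, −0.075 to 0.012 for Nfkbia, −0.119 to 0.104 for Nfkbie and −0.233 to 0.043 for Nfkbiz. At the label CD8 they were −0.016 to 0.071 for Nfkb2, −0.112 to 0.00439 for Rela and −0.126 to 0.023 for Tnfaip3. For the difference they were −0.057 to 0.082 for Rela and −0.191 to 0.086 for Nfkbiz.

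Counts over all genes moved more. The 21 calls of KO against WT at the label CD11b were 71 without a filter, 42 with DESeq2 and 13 with both libraries left out. The 21 at the label CD8 were 142 without a filter, 59 with DESeq2, 63 with limma-voom and 78 with only the libraries compared, and 7 to 53 with 1 library left out. The 3 calls for the difference were 41 without a filter, 6 with unstranded counts, 12 with DESeq2, 8 with the replicate block by number, 28 with that by genotype and number, and 3 to 8 with 1 library left out. The cause was not tested. Groups of 2 KO libraries limit the genotype comparisons, and a fit without 1 of them takes the spread of the other groups for the lone library.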
